A study of Mus musculus with 28 samples.

Results

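The 10 genes described here mark hepatic stellate cells in mouse liver. They were taken by gene symbol (Lrat, Reln, Des, Acta2, Tagln, Pdgfra, Pdgfrb, Rgs5, Hand2 and Lhx2), and all 10 were found among the 32544 genes of each of the 2 count tables. RNA was sequenced from whole liver of 28 C57BL/6 mice, aged 13 weeks by the labels, with 1 library per animal. Floxed control mice (CT) were compared with mice carrying an endothelial c-Myc knockout (KO), on a high-fat/cholesterol diet (HFC) or its low-fat control (CTD), which gave 4 males and 3 females in each of the groups CT CTD, KO CTD, CT HFC and KO HFC. Both genotypes had received tamoxifen at 5 weeks of age to activate Cre, and feeding began 2 weeks later and lasted 5 weeks, which adds to 12 weeks. The Cre driver is not given in the sources used here, and whole-liver RNA does not show how far c-Myc was lost from endothelial cells. Diet groups carry animal numbers from separate ranges. The labels name no cohort, and if the numbers follow one, diet and cohort cannot be told apart.

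Stellate cells lie between hepatocytes and the sinusoidal endothelium. In the quiescent state they store vitamin A as retinyl esters, and after injury they can turn into contractile cells that deposit matrix. The retinyl ester enzyme Lrat and the secreted glycoprotein Reln are used as markers of the quiescent cell, whereas smooth muscle actin (Acta2) and transgelin (Tagln) are used as markers of the contractile one and are also made by vascular smooth muscle.

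By GENCODE M21 on GRCm38, with the strand in brackets, the genes lie as follows. The retinoid and reelin genes are Lrat at chr3:82892579-82903973 (minus) and Reln at chr5:21884454-22344702 (minus). The cytoskeletal genes are Des at chr1:75360329-75368579 (plus), Acta2 at chr19:34241090-34255590 (minus) and Tagln at chr9:45929619-45936058 (minus). The receptors are Pdgfra at chr5:75152292-75198215 (plus) and Pdgfrb at chr18:61045150-61085061 (plus). The signalling regulator is Rgs5 at chr1:169655501-169695813 (plus), and the transcription factors are Hand2 at chr8:57320983-57324633 (plus) and Lhx2 at chr2:38339281-38369733 (plus).

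Male libraries held 22154774 to 22652285 counts and female libraries 18741939 to 19195502. Each of the 10 genes passed the filter on low counts in both tables. Acta2 had the fewest reads, with 17 to 95 counts in a female library and 18 to 89 in a male library, and Reln had the most, with 360 to 1385 and 712 to 2299. Levels are TMM-normalised CPM, which are counts scaled to the size of the library. In the bulk tissue, fewer stellate cells and less RNA per cell cannot be told apart. The summed level of the hepatocyte markers Alb, Apoa1, Ttr and Hnf4a was 54160.2 to 94679.7 CPM in males, and 5 of 6 skeletal muscle markers had at most 10 counts in every library.

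The promoters of 3 of the genes are shown because CArG boxes, which bind serum response factor, are known in the control regions of contractile genes such as Acta2. Each run is the RefSeq window on GRCm38.p6 of 250 bases before to 50 bases after the transcript start, read 5′ to 3′ on the gene's strand, and capitals mark every 10-base match to the CArG box with at most 1 mismatch in its A/T core. Because the motif reads as the same pattern on both strands, 1 search covers both. The windows are chr19:34255324-34255623 (minus strand) for Acta2, chr1:75360042-75360341 (plus strand) for Des and chr3:82903925-82904224 (minus strand) for Lrat.
Acta2: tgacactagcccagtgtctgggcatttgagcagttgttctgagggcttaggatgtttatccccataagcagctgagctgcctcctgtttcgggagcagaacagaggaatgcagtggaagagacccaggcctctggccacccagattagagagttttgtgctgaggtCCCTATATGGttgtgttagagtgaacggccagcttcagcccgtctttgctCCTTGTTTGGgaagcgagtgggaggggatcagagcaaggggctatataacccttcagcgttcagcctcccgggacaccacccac
Des: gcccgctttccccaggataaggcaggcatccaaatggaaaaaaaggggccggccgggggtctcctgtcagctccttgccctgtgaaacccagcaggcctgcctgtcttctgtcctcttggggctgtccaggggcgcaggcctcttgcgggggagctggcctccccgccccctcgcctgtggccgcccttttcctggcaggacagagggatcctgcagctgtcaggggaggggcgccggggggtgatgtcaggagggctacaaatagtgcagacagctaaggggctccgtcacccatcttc
Lrat: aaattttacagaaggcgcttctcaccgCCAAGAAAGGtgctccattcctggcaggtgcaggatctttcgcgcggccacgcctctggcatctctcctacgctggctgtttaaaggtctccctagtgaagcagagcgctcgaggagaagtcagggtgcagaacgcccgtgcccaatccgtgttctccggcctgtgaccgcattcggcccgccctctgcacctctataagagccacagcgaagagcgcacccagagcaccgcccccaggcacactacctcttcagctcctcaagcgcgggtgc
Matches began 84 and 34 bases before the Acta2 start and 223 bases before the Lrat start, and the Des window held none. No window of the 8 genes that have an entry held an exact box. Of these 8 genes, Acta2 and Lrat held a match with up to 1 mismatch. Reln, Des, Pdgfra, Rgs5, Hand2 and Lhx2 held none. Of 32851 mouse promoters, 1.63% held an exact box and 9.98% a match with up to 1 mismatch. A match in these letters is a description and not evidence of binding.

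Per kilobase of annotated exon, the order of levels on the control diet was led by Rgs5 and Hand2. Rgs5, a regulator of G protein signalling found in pericytes, had 7.0 ± 1.17 CPM per kb (SD, n = 4) in CT CTD males. Hand2, a transcription factor of the stellate lineage, followed at 3.34 ± 1.01 CPM per kb (SD, n = 4), and the ranges of these neighbours did not overlap. Every other pair of neighbours in the male order overlapped, down through Tagln, Lrat, Reln, Pdgfrb, Des, Acta2 and Lhx2 to Pdgfra at 0.52 ± 0.0752 CPM per kb (SD, n = 4). In CT CTD females Hand2 came first at 4.89 ± 1.18 CPM per kb and Rgs5 second at 3.42 ± 1.66 CPM per kb (SD, n = 3 each), and all neighbours overlapped.

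**Figure D1:**
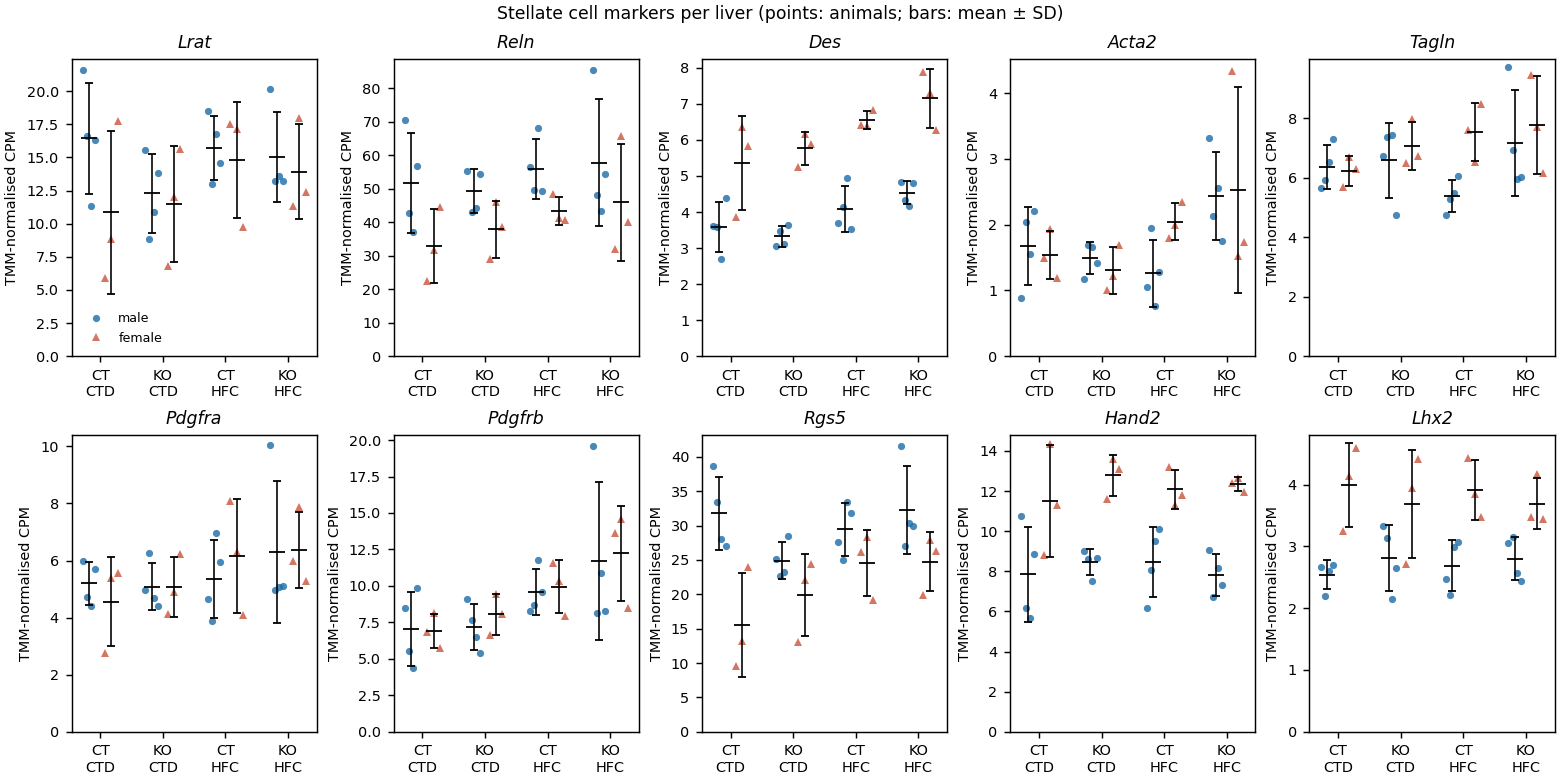
TMM-normalised CPM of each gene (vertical axis, from 0) in the 4 groups (horizontal axis), with 1 point per animal, circles for males and triangles for females, and bars for mean ± SD. The groups overlap for most genes, and 1 KO HFC male stands highest of all animals for Reln, Pdgfra, Pdgfrb, Rgs5 and Tagln.

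The diet comparison asks whether stellate markers differ between HFC and CTD livers. Of the 10 genes, Des rose past the threshold (edgeR quasi-likelihood test, Benjamini-Hochberg adjusted p under 0.05 over all tested genes) in KO males, and none passed it in the other 3 diet comparisons. The difference between genotypes in the response of Des was not called (interaction log2 0.26, SE 0.22, edgeR adjusted p = 0.946). In KO males 1 of 10 genes was called and it was higher, beside 29.1% of all 14078 tested genes called in either direction and 15.5% called higher. In CT males 0 of 10 were called, beside 20.0% of all genes in either direction and 10.6% higher. In females 0 of 10 were called in CT, beside 2.19% and 0.936%, and 0 of 10 in KO, beside 8.59% and 3.94%. At an unadjusted p under 0.05 the number of the 10 genes was 0 in CT males, 4 in KO males, 1 in CT females and 2 in KO females. Over all tested genes that number was 4728 of 14078 in CT males and 5586 of 14078 in KO males. It was 2842 of 13999 in CT females and 3602 of 13999 in KO females. The median log2 fold change of the 10 genes was 0.06 in CT males, 0.30 in KO males, 0.40 in CT females and 0.29 in KO females, where the median over all tested genes was -0.010, -0.016, 0.0043 and 0.021. Scaling by library totals in place of TMM moves the medians of the 10 genes to 0.29, 0.59, 0.68 and 0.59 and those of all genes to 0.22, 0.26, 0.30 and 0.32. It also turns the split of all calls from 1497 higher and 1323 lower to 4125 and 410 in CT males, from 2184 and 1918 to 5581 and 511 in KO males, from 131 and 176 to 1682 and 145 in CT females, and from 551 and 651 to 3357 and 380 in KO females.

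Des encodes desmin, an intermediate filament protein of muscle that also marks rodent stellate cells. In KO males Des was 3.05, 3.49, 3.12 and 3.63 CPM under CTD and 4.84, 4.35, 4.17 and 4.81 CPM under HFC. All HFC values lay above all CTD values, and the log2 fold change was 0.45 (SE 0.15, edgeR adjusted p = 0.0335). This call is not stable: it was lost when KO CTD animal 298, 303 or 304 or KO HFC animal 414 or 540 was left out (edgeR adjusted p = 0.0845, 0.0552, 0.0808, 0.0829 and 0.0744), and with no filter on low counts (adjusted p = 0.0599). In CT males the log2 fold change of Des was 0.19 (SE 0.15, edgeR adjusted p = 0.419), with means of 3.58 ± 0.693 CPM under CTD and 4.08 ± 0.636 CPM under HFC (SD, n = 4 each). In KO females Des was 5.25, 6.16 and 5.88 CPM under CTD and 7.90, 7.30 and 6.26 CPM under HFC. The groups did not overlap, and the log2 fold change of 0.31 (SE 0.19) was not called (edgeR adjusted p = 0.310). In CT females Des was 3.87, 6.37 and 5.84 CPM under CTD and 6.40, 6.39 and 6.83 CPM under HFC, again without overlap and with a log2 fold change of 0.28 (SE 0.19, edgeR adjusted p = 0.413).

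Of the 10 genes, Des and Acta2 were higher without overlap in KO males, beside 15.4% of all tested genes. None of the 10 was so in CT males, beside 11.4%. Only Des was so in CT females, beside 14.3%, and in KO females, beside 12.2%. In KO males the members' share was thus 2 of 10, and in each female comparison 1 of 10, near the share of all genes.

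Acta2 encodes smooth muscle actin. In KO males it was 1.17, 1.69, 1.66 and 1.42 CPM under CTD and 3.31, 2.13, 2.56 and 1.75 CPM under HFC. The lowest HFC animal stood just above the highest CTD animal, and the log2 fold change of 0.72 (SE 0.30) missed the threshold (edgeR adjusted p = 0.0806). In CT males Acta2 was 0.891, 2.04, 1.56 and 2.20 CPM under CTD and 1.05, 1.94, 0.758 and 1.29 CPM under HFC, which overlap, with a log2 fold change of -0.42 (SE 0.31, edgeR adjusted p = 0.366). In KO females it was 1.0, 1.22 and 1.70 CPM under CTD and 4.34, 1.52 and 1.74 CPM under HFC. A single animal lay far above the others there, and the log2 fold change was 0.95 (SE 0.39, edgeR adjusted p = 0.149), and 0.32 without that animal. In CT females the log2 fold change was 0.41 (SE 0.39, edgeR adjusted p = 0.601). Tagln, an actin-binding protein of contractile cells, had a log2 fold change between diets of -0.24 in CT males, 0.12 in KO males, 0.27 in CT females and 0.14 in KO females, with edgeR adjusted p between 0.353 and 0.663. Exons of Tagln overlap those of Pcsk7 on the opposite strand by annotation, and strandedness of the counting is not given in the sources used here, so reads of these genes may not be separable. By annotation, exons of Reln, Des, Tagln, Pdgfra and Hand2 overlap antisense or other opposite-strand transcripts that are not counted in the tables.

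The platelet-derived growth factor receptors Pdgfra and Pdgfrb receive growth signals, and Pdgfrb is the form used as a stellate and pericyte marker. In KO males Pdgfrb was 9.10, 7.67, 6.48 and 5.40 CPM under CTD and 19.6, 8.12, 10.9 and 8.27 CPM under HFC. The groups overlapped and 1 HFC animal stood far above the rest. The log2 fold change was 0.71 (SE 0.30, edgeR adjusted p = 0.0859), and 0.34 without that animal. In CT males it was 0.44 (SE 0.30, edgeR adjusted p = 0.330). Female values were 6.87, 8.12 and 5.73 CPM in CT CTD, 11.5, 10.3 and 7.95 CPM in CT HFC, 6.61, 9.43 and 8.09 CPM in KO CTD and 13.6, 14.6 and 8.48 CPM in KO HFC. The diets overlapped in both genotypes, with log2 fold changes of 0.53 (SE 0.23, edgeR adjusted p = 0.216) and 0.60 (SE 0.22, edgeR adjusted p = 0.112). Pdgfrb had the same sign in all 4 diet comparisons and none was called. Pdgfra had log2 fold changes of 0.04 in CT males, 0.31 in KO males, 0.43 in CT females and 0.33 in KO females, with edgeR adjusted p from 0.337 to 0.922.

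Lrat makes the retinyl esters that quiescent cells store. In males Lrat was 21.6, 16.6, 11.3 and 16.3 CPM in CT CTD and 18.5, 13.0, 16.8 and 14.6 CPM in CT HFC, and 15.6, 8.82, 10.9 and 13.8 CPM in KO CTD and 20.2, 13.2, 13.6 and 13.2 CPM in KO HFC. Diets overlapped in both genotypes. The log2 fold changes were -0.07 (SE 0.20) and 0.29 (SE 0.21), with edgeR adjusted p of 0.854 and 0.313. Under scaling by library totals the value in CT males was 0.16, below the shift of all genes. In females the log2 fold changes of Lrat were 0.45 (SE 0.41) and 0.28 (SE 0.41), with edgeR adjusted p of 0.581 and 0.708. Reln was 51.7 ± 15 CPM in CT CTD males, 55.9 ± 8.87 in CT HFC males, 49.2 ± 6.57 in KO CTD males and 57.8 ± 19.0 in KO HFC males (SD, n = 4 each), and its diet changes had edgeR adjusted p between 0.462 and 0.767 in the 4 comparisons. Rgs5 had log2 fold changes of -0.11 in CT males, 0.37 in KO males, 0.66 in CT females and 0.31 in KO females, with edgeR adjusted p of 0.627, 0.0567, 0.280 and 0.572. The transcription factors Hand2 and Lhx2, the latter a factor that holds stellate cells quiescent in mice, stayed between -0.11 and 0.11 on the log2 scale in all 4 diet comparisons, with edgeR adjusted p of 0.696 and above. Their intervals allow changes of some size: the 95% interval of Lhx2 in KO males ran from -0.36 to 0.35. Under scaling by library totals all 8 of these Hand2 and Lhx2 values were above 0, and several of those near 0 changed sign.

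**Figure D2:**
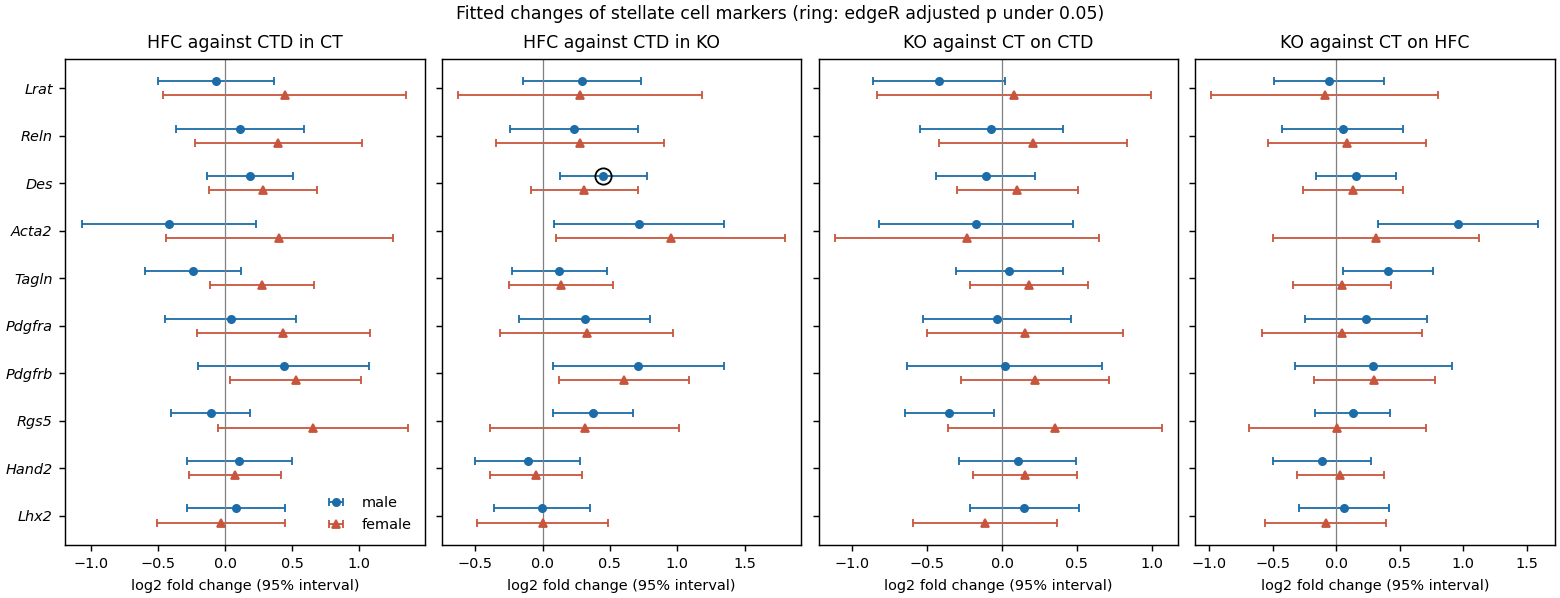
Log2 fold change with its 95% interval (horizontal axis) for each gene (vertical axis) in the diet and genotype comparisons, circles for males and triangles for females. The black ring marks the single call, Des at 0.45 in KO males, and most intervals cross 0.

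The genotype comparison asks whether the loss of endothelial c-Myc moved these markers. For none of the 10 genes was a change called in KO against CT on CTD or on HFC or in the genotype by diet interaction, in either sex, and edgeR called 0 of all tested genes (0%) in each of these 6 contrasts. At an unadjusted p under 0.05 the number of all genes was 949, 653 and 852 in males and 446, 311 and 546 in females, and DESeq2 called 11, 3 and 5 in males and 1, 0 and 0 in females. The number of the 10 genes at an unadjusted p under 0.05 was 1, 2 and 2 in males and 0 in each female contrast, and DESeq2 called 0 of the 10 throughout. On HFC in males Acta2 was 1.05, 1.94, 0.758 and 1.29 CPM in CT and 3.31, 2.13, 2.56 and 1.75 CPM in KO. The groups overlapped at a single value on each side. The log2 fold change of 0.96 (SE 0.30, 95% interval 0.33 to 1.59) did not pass the adjustment (edgeR adjusted p = 0.958). The interaction in males was 1.14 (SE 0.43, edgeR adjusted p = 0.759), and in females it was 0.55 (SE 0.56, edgeR adjusted p = 0.991). Tagln on HFC in males was 4.74, 5.30, 5.50 and 6.06 CPM in CT and 9.75, 6.93, 5.95 and 6.03 CPM in KO, which overlap, with a log2 fold change of 0.41 (SE 0.17, edgeR adjusted p = 0.958).

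On CTD in males, Rgs5 was 38.6, 33.5, 28.1 and 27.1 CPM in CT and 25.1, 22.7, 23.3 and 28.6 CPM in KO, and Lrat had a log2 fold change of -0.42 (SE 0.21, edgeR adjusted p = 0.748). Only the highest KO animal reached the CT range of Rgs5, and its log2 fold change of -0.35 (SE 0.14) was not called (edgeR adjusted p = 0.735). In females the same comparison gave 0.35 (SE 0.33) for Rgs5 and 0.08 (SE 0.41) for Lrat, both with edgeR adjusted p of 0.999. The difference between the sexes was not tested.

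Single animals stood apart in several groups. KO HFC male 414 had the highest level of its group for 9 of the 10 genes. Its Lrat was 20.2 CPM beside 13.2 to 13.6 in the other 3, its Pdgfra 10.05 beside 4.96 to 5.09, and its Reln 85.5 beside 43.3 to 54.4. Without it the median log2 fold change of the 10 genes between diets in KO males fell from 0.30 to 0.05, and 0 of 10 were called. The sum of the 10 genes was 207 CPM in this animal, and the median of its group was 130. Its total of 22616573 counts lay within the range of the group, and its TMM factor of 1.19 was the highest of the male libraries. The summed level of the 4 cholangiocyte markers was 24.3 CPM in it with a group median of 10.2 CPM, and that of the 14 matrix genes was 537 CPM with a group median of 208 CPM, whereas its endothelial and macrophage sums, 158 and 350 CPM, lay inside the group's range. Their part in the result was not tested. Among females, KO CTD animal 307 was lowest of its group for 10 of 10 genes and CT CTD animal 306 for 8 of 10. Without 306 the median log2 fold change between diets in CT females was 0.18 in place of 0.40, and that in KO females was 0.10 without 307 and 0.14 without KO HFC 413, in place of 0.29. In CT males the median of 0.06 turned to -0.03 without CT CTD 313, to -0.05 without CT HFC 418 and to -0.00076 without CT HFC 543. It was 0.0014 without CT CTD 305, and between 0.11 and 0.14 without any of the other 4 animals.

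**Figure D3:**
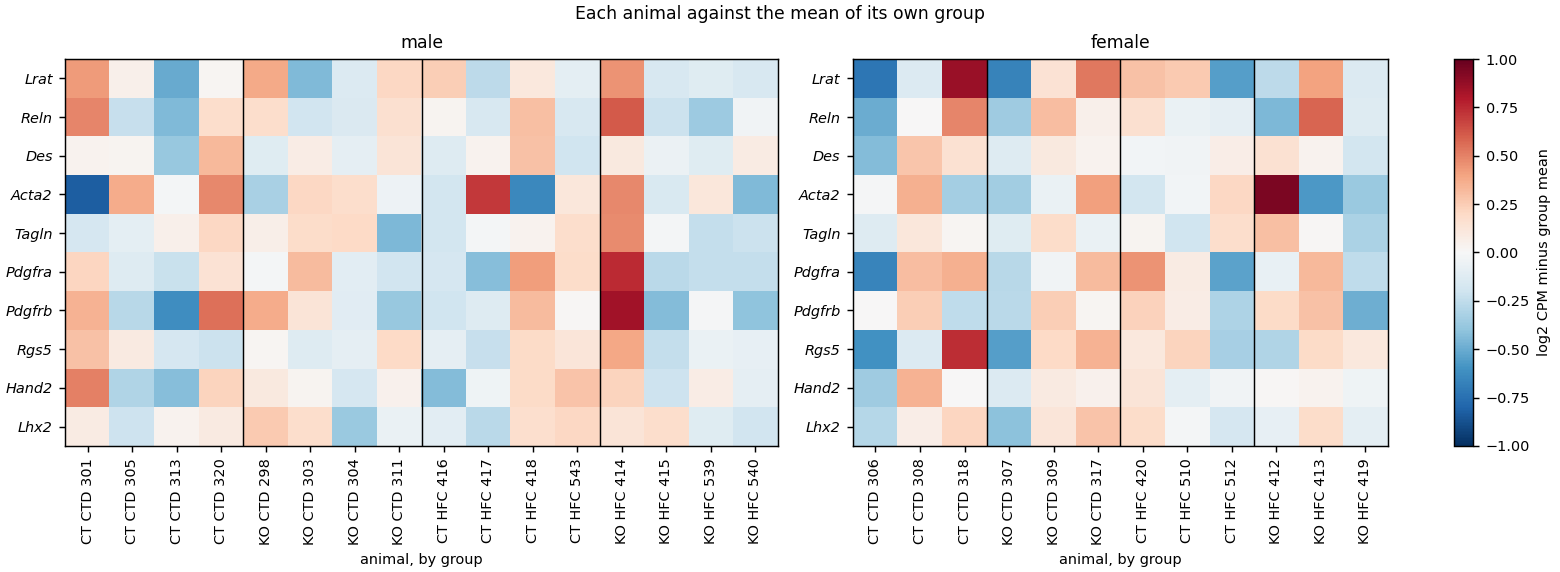
Log2 CPM of each gene (rows) in each animal (columns, by group) minus the mean of the animal's own group, males left and females right, red above and blue below. Male KO HFC 414 is red in every row, and female KO CTD 307 is blue in every row.

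**Figure D4:**
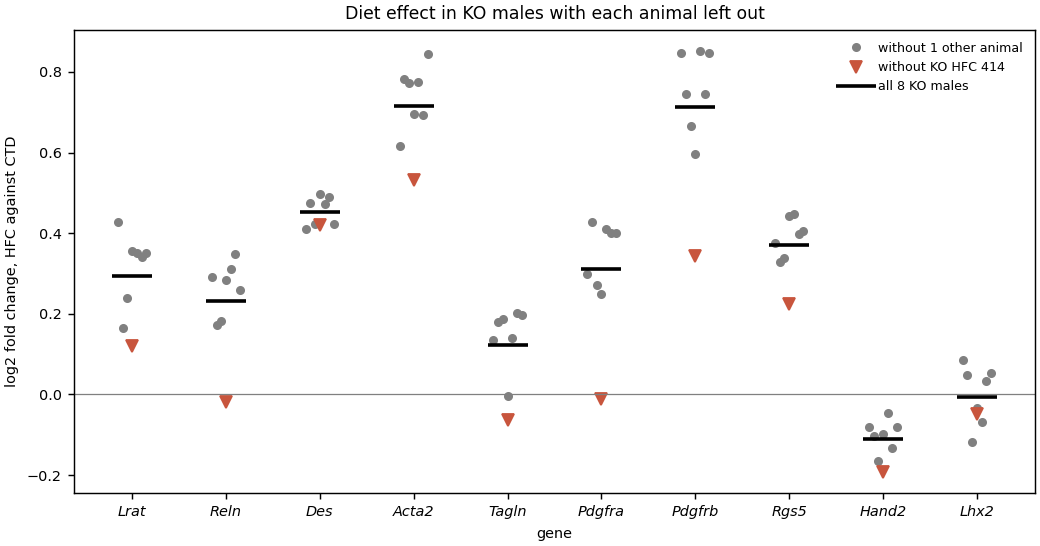
Log2 fold change of each gene between HFC and CTD in KO males (vertical axis), with all 8 animals (black line), without KO HFC 414 (red triangle) and without each other animal (grey points). Pdgfrb moves from 0.71 to 0.34 without 414, whereas Des moves from 0.45 to 0.42.

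Co-variation across animals was examined within groups. Over log2 CPM with each group's mean subtracted, all 45 pairs of the 10 genes were compared in each sex, a comparison added after the data were seen. The median Pearson r was 0.42 in males (16 animals, range -0.31 to 0.83) and 0.46 in females (12 animals, range -0.50 to 0.97), and 38 of 45 pairs were above 0 in each sex. For r of a marker with all other tested genes, the median lay between -0.016 and 0.025. The 95th percentile of such r was 0.48 to 0.61 in males and 0.57 to 0.72 in females. For Lrat it was 0.53 and 0.68, so many other genes reach such values with a marker. Lrat and Reln had r = 0.83 (rho = 0.76) in males, with permutation p = 0.00076 and 0.0019, adjusted over the 45 pairs to 0.0277 and 0.0279. In females they had r = 0.81 (rho = 0.85), with permutation p = 0.0081 and 0.0060, adjusted to 0.0457 and 0.0336. Without the 2 animals farthest from the median of Lrat, r was 0.73 and 0.69. Acta2 and Lrat had r = -0.31 in males and -0.22 in females, with permutation p of 0.291 and 0.466 (adjusted 0.451 and 0.670) and rho of -0.26 and -0.24 (permutation p = 0.373 and 0.478, adjusted 0.560 and 0.615). In all, 2 male and 8 female pairs passed an adjusted permutation p of 0.05 by Pearson's r. By the smaller of the male and female r among 13737 other genes, the genes most like Lrat were Sytl2 (0.82 and 0.84), Rasgrp3 (0.84 and 0.82) and Reln. For Acta2 they were Card9 (0.75 and 0.72), Psd (0.86 and 0.71) and Mthfsl (0.66 and 0.64), and for Pdgfrb Git1 (0.81 and 0.81), Cbx6 (0.79 and 0.83) and Pmepa1 (0.78 and 0.85). These values are descriptions over 16 and 12 libraries.

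Genes that signal to stellate cells, or that activated ones make, were taken from lists, and all-gene values for each comparison are those given above. Of the 13 tested genes of platelet-derived growth factor and transforming growth factor signalling, 5 rose on HFC in KO males and 0 fell, with a median log2 fold change of 0.48. Pdgfb, a ligand of Pdgfrb, was 0.656, 0.897, 0.975 and 0.540 CPM under CTD and 4.65, 1.93, 2.52 and 1.92 CPM under HFC. Every HFC animal exceeded every CTD animal, and its log2 fold change was 1.84 (SE 0.34, edgeR adjusted p = 0.000705). Tgfb1, which drives matrix production, rose by 1.24 (SE 0.18) in KO males and 0.75 (SE 0.18) in CT males on the log2 scale, and Pdgfc, a Pdgfra ligand, by 0.80 (SE 0.21) in KO males. In CT males Tgfb1 was the only one of the 13 called, and in females 0 of 13 were called in either genotype.

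Of the 14 matrix genes, 7 rose on HFC in KO males and 0 fell, with a median log2 fold change of 1.13, and 2 were called without animal 414, with a median of 0.64, beside -0.016 over all genes with every animal. Fbn1, a microfibril protein, was 2.95, 2.49, 2.83 and 2.26 CPM under CTD and 10.9, 5.21, 5.58 and 5.09 CPM under HFC, a log2 change of 1.35 (SE 0.29). Postn, a matricellular protein, rose by 0.96 (SE 0.19) and the fibrillar collagen Col3a1 by 1.74 (SE 0.54), a call that was lost without 414 (1.12, edgeR adjusted p = 0.114). All 4 HFC animals lay above all CTD animals for these genes, with 414 highest. In CT males 0 of 14 were called, with a median of 0.41, and in females 0 in CT and 1 in KO (Tnc, 1.89, SE 0.54). The matrix sum was 185 to 537 CPM in KO HFC males and 103 to 142 in KO CTD males. It was 155 to 254 CPM in CT HFC males and 74.1 to 280 in CT CTD males, where the highest CTD animal exceeded every HFC animal. The genotype by diet interaction in males was called for 0 of the 14 matrix genes.

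Of 11 tested retinoid genes, 2 rose and 4 fell in KO males, and 2 rose and 2 fell in CT males. The median log2 fold change of the 11 was -0.12 in KO males and 0.062 in CT males. It was -0.066 in KO females and -0.32 in CT females. The genes named next had negative values, and those that rose are not named here. Cyp26b1, which degrades retinoic acid, fell by 0.90 (SE 0.25) in KO males and by 1.05 (SE 0.24) in CT males on the log2 scale. Aldh1a2, which makes retinoic acid, fell by 1.77 (SE 0.48) in KO males, and had a log2 fold change of -1.24 (SE 0.48, edgeR adjusted p = 0.0763) in CT males. Rbp4, the carrier of retinol in blood and mainly a hepatocyte product, fell by 0.44 (SE 0.10) in KO males and had a value of -0.28 (SE 0.10, edgeR adjusted p = 0.0593) in CT males. In KO females Dgat1 fell by 0.44 (SE 0.12) and was the only one called. Of 17 other tested genes of quiescent stellate cells, Cygb rose by 0.64 (SE 0.18) and Vipr1 fell by 0.54 (SE 0.13) in KO males, and without animal 414 no rise was called among them. Vipr1 also fell in CT males, by 0.38 (SE 0.13), and in females 0 of 18 tested were called in either genotype. Of 9 tested genes of contractile cells other than Acta2 and Tagln, Tpm1 rose by 0.77 (SE 0.14) and Mylk fell by 0.29 (SE 0.0795) in KO males. In CT males Tpm1 rose by 0.47 (SE 0.14) and Mylk fell by 0.44 (SE 0.080). In KO females Tpm1 rose by 0.80 (SE 0.17) and was the only one called, and in CT females 0 of 9 were called. Actg2, Cnn1, Lmod1 and Myocd, 4 of the 13 listed contractile genes, had at most 10 counts in every library. The other 9, Myh11 among them, passed the filter on low counts in both sexes.

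Markers of other cells differed between diets in the same animals. In KO males, 4 of 4 macrophage, 3 of 3 T cell, 3 of 6 endothelial and 2 of 4 cholangiocyte markers rose on HFC. Without animal 414 none of the cholangiocyte markers rose and 1 fell, and their median log2 fold change turned from 0.28 to -0.18, whereas the other 3 counts stayed at 4, 3 and 3. In CT males 3 of 4 macrophage, 2 of 3 T cell, 1 of 6 endothelial and 0 of 4 cholangiocyte markers rose. In females 0 markers of these 4 cell types were called in either genotype. In KO males the macrophage sum was 323 to 357 CPM under HFC and 126 to 151 CPM under CTD, and the T cell sum 4.44 to 6.21 and 1.49 to 2.16 CPM. The same sums in CT males were 259 to 392 and 145 to 230 CPM, and 3.39 to 4.63 and 1.40 to 2.29 CPM. Neither sum overlapped between diets in males of either genotype. The endothelial sum was 134 to 179 and 104 to 144 CPM in KO males. It was 136 to 217 and 144 to 182 CPM in CT males. The hepatocyte sum was 59704 to 72835 CPM under HFC and 74900 to 94680 CPM under CTD in KO males. In CT males it was 57574 to 72570 and 54160 to 86772.5 CPM, which overlap. Female hepatocyte sums were 83164 to 130978 and 148945 to 152565 CPM in CT, and 89952 to 100852 and 135388 to 159296 CPM in KO. Of the 4 hepatocyte markers, 1 was called lower in KO females and 0 in the other diet comparisons. Of the portal fibroblast and mesothelial genes 3 of 9 rose and 2 fell in KO males, led by Thy1 with a log2 fold change of 1.90 (SE 0.25). The median of the 9 was -0.0071 in KO males, -0.20 in CT males, -0.11 in KO females and -0.30 in CT females. Thy1 also rose by 0.88 (SE 0.24) in CT males and by 1.39 (SE 0.38) in KO females. Whole-liver RNA does not show which cells the Thy1 reads came from. Mcam, as 1 of 5 tested pericyte genes, rose by 0.66 (SE 0.18) in KO males and by 0.52 (SE 0.18) in CT males. Of the reelin receptor and adaptor genes 0 of 2 tested in males and 0 of 3 in females were called in either genotype. The part of these cells in the marker values was not tested.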

How the data were processed

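Total RNA of whole liver was sequenced on DNBSEQ, per the labels' protocols. For each sex the authors deposited whole-number read counts per gene and CPM values, which equal each count over its library total (largest difference 4.44e-05 CPM). FastQC, edgeR and GRCm38 (mm10) are named, per the submitters' processing notes, with no versions or roles. The aligner, the counting program and strandedness were not given in the sources used here.

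Each sex was fitted separately from the deposited counts with edgeR 4.0.16 (R 4.3.3), using TMM factors, filterByExpr, a mean per group, and robust quasi-likelihood F tests adjusted by Benjamini-Hochberg over 14078 male or 13999 female genes. TMM factors were 0.862 to 0.999 for CTD and 1.02 to 1.19 for HFC males, and 0.842 to 0.939 and 1.00 to 1.17 in females. A standard error is the fold change over the square root of F, an approximation. Replicates of a group differed by more than counting noise (chi-square per degree of freedom of 11.9 or more). Nothing names separate litters or days, and p-values measure the spread between animals. Alternatives were RLE factors, library totals, no filter, the compared groups alone, DESeq2 1.42.0, limma 3.58.1 on log2(CPM + 0.5) and each animal left out. The steps were tested on simulated data. Coordinates and exon lengths are from GENCODE M21. Correlations used 100000 permutations within groups.

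All 10 markers are reported. Of the 14 other lists, up to 3 called genes per comparison were eligible to be named, in order of adjusted p. Members and lists were chosen with earlier results of these data known.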

Additional observations from a re-analysis of the deposited data

Results flagged for a closer look

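In males, the highest and lowest animal of each marker in each group of 4 was compared with the others by its gap over the group's range, which gave 40 such sets of values. Chance flags about 1 in 20 such sets, and 2 of 40 were flagged. Both came from KO HFC male 414. Lrat was 20.2 CPM in that animal and 13.2 to 13.6 CPM in the other 3. Pdgfra was 10.05 CPM in it and 4.96 to 5.09 CPM in the other 3. Groups of 3 females were not tested in this way.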

How the results depend on the processing

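No paired analysis was possible because each animal number occurs once, so no number links animals of different groups. The count of the 10 markers called between diets depended on the setting. In KO males it was 1, and became 4 with library totals and 4 with limma on CPM (Des, Acta2, Pdgfrb and Rgs5 in both), 3 with DESeq2 (Des, Pdgfrb, Rgs5), 3 with only the compared groups (Des, Acta2, Rgs5), 0 without the filter on low counts, and 0 to 2 with 1 animal left out. Rgs5 joined Des without KO CTD male 311 (adjusted p = 0.0430) and without KO HFC male 415 (0.0305). In KO females it was 0, and became 3 with library totals, 2 with limma on CPM and 0 to 1 with 1 animal left out, when KO HFC female 413 was removed (Acta2, adjusted p = 0.0428) or 419 (Pdgfrb, 0.0413). In CT females it was 0, and 1 with library totals. Calls over all genes moved too, with 14078 male and 13999 female genes tested in the main fits. In KO males 4102 became 6092 with library totals, 6084 with limma, 4324 with DESeq2 and 3610 with only the compared groups. The number was 3757 without the filter and 3064 to 4089 with 1 animal left out. In KO females 1202 became 3737 with library totals, 3479 with limma, 2671 without 413 and 765 without 419. In CT females 307 became 1827 with library totals. Library totals and limma on CPM carry the shift of all genes between diets. The other counts of called markers, in the genotype and interaction comparisons and in CT males, stayed at 0 under every alternative run.

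Of 1420 alternative fold changes of the 10 markers, 1277 kept direction and side of the threshold, 6 lost and 20 gained a call, and 117 changed sign, where neither value was called. Of 676 for list genes that were called in the main fit and eligible to be named, 589 kept both and 87 lost the call. These genes were taken because they were called, so none could gain a call. Signs changed for Hand2 on HFC against CTD in KO females with library totals (0.25) and limma (0.24), and in KO males (0.17 and 0.15). Lhx2 became 0.26 and 0.23 in CT females under the same settings and 0.27 and 0.24 in KO males, where RLE factors gave 0.0053, DESeq2 0.0056 and the compared groups alone 0.019. In KO females Lhx2 became -0.0048 with RLE factors, -0.0048 without the filter, -0.0033 with the compared groups alone and -0.0056 with DESeq2. In CT males library totals and limma gave 0.16 and 0.18 for Lrat and 0.13 and 0.12 for Rgs5. The cause was not tested.

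With 1 animal left out, the log2 fold changes that changed sign had these ranges. For KO against CT on HFC in females the ranges were -0.32 to 0.58 for Acta2, -0.017 to 0.096 for Hand2, -0.18 to 0.013 for Lhx2, -0.32 to 0.048 for Lrat, -0.18 to 0.29 for Pdgfra, -0.26 to 0.29 for Reln, -0.14 to 0.14 for Rgs5, -0.12 to 0.19 for Tagln. For the genotype by diet interaction in females the ranges were -0.089 to 0.81 for Acta2, -0.11 to 0.21 for Des, -0.32 to 0.036 for Hand2, -0.14 to 0.18 for Lhx2, -0.72 to 0.13 for Lrat, -0.33 to 0.15 for Pdgfra, -0.070 to 0.28 for Pdgfrb, -0.47 to 0.091 for Reln, -0.30 to 0.0070 for Tagln. For KO against CT on CTD in females the ranges were -0.084 to 0.24 for Des, -0.0072 to 0.34 for Hand2, -0.27 to 0.059 for Lhx2, -0.22 to 0.63 for Lrat, -0.11 to 0.32 for Pdgfra, -0.0077 to 0.48 for Reln. For KO against CT on CTD in males the ranges were -0.22 to 0.0056 for Des, -0.023 to 0.29 for Hand2, -0.15 to 0.037 for Pdgfra, -0.15 to 0.22 for Pdgfrb, -0.20 to 0.11 for Reln, -0.015 to 0.18 for Tagln. For HFC against CTD in CT in females the ranges were -0.087 to 0.27 for Hand2, -0.16 to 0.080 for Lhx2. For HFC against CTD in CT in males the ranges were -0.022 to 0.29 for Hand2, -0.21 to 0.089 for Lrat, -0.11 to 0.17 for Pdgfra, -0.020 to 0.30 for Reln. For HFC against CTD in KO in females the ranges were -0.18 to 0.15 for Lhx2, -0.070 to 0.48 for Reln, -0.026 to 0.28 for Tagln. For HFC against CTD in KO in males the ranges were -0.12 to 0.085 for Lhx2, -0.010 to 0.43 for Pdgfra, -0.019 to 0.35 for Reln, -0.063 to 0.20 for Tagln. For KO against CT on HFC (males) the ranges were -0.020 to 0.13 for Lhx2, -0.23 to 0.028 for Lrat, -0.090 to 0.39 for Pdgfra, -0.078 to 0.43 for Pdgfrb, -0.20 to 0.17 for Reln, -0.019 to 0.20 for Rgs5. For the genotype by diet interaction in males the ranges were -0.20 to 0.0043 for Lhx2, -0.053 to 0.42 for Pdgfra, -0.095 to 0.44 for Pdgfrb, -0.13 to 0.25 for Reln.

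The number of animals limits what can be seen, with 3 or 4 per group. Acta2 had the fewest counts of the markers.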
